A study of Mus musculus with 12 samples.

Results

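Regulators of DNA and histone methylation, most with human counterparts that are recurrently mutated in myelodysplastic syndrome (MDS) and acute myeloid leukaemia (AML), were followed in leukaemic cells of mice. They were the DNA methyltransferases Dnmt3a and Dnmt1, the 5-methylcytosine dioxygenases Tet1, Tet2 and Tet3, the Polycomb-related genes Asxl1 and Ezh2, the isocitrate dehydrogenases Idh1 and Idh2, and the histone demethylase Kdm6a. These 10 were taken by name from the 41214 genes counted. They were chosen with earlier results of these data known, and all 10 were among the 13822 genes with enough counts to be tested. The cells came from 2 KD mice, labelled Gfi1 KD/KD in the series and homozygous in the RNA labels, and they were set against cells of 2 KI mice, labelled Gfi1 KI/wt and heterozygous. Every mouse was C57/BL6 NUP98-HOXD13, so the controls carried the same fusion transgene, in which the nucleoporin NUP98 is joined to the homeobox protein HOXD13 and which models MDS that progresses to AML. In the transgenic line of that name the fusion is driven in blood cells by the Vav1 promoter. In the mouse lines of these names, KI and KD are Gfi1 alleles carrying the human GFI1 coding sequence, the second with lowered expression. Gfi1 itself is a zinc finger repressor needed for neutrophil formation. Ages, disease stage, the organ sampled and any sorting of the cells are not known from the labels. The question that the design poses for these genes is whether a low dose of Gfi1 goes with another level of the methylation machinery in leukaemia.

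DNA methyltransferases place methyl groups on cytosine: Dnmt3a sets new marks, and Dnmt1 copies existing marks to the new strand after replication. The Tet enzymes oxidise 5-methylcytosine and need 2-oxoglutarate, which Idh1 in the cytosol and Idh2 in mitochondria produce from isocitrate, and mutant human IDH1 and IDH2 make 2-hydroxyglutarate, which inhibits those dioxygenases. Ezh2 is the catalytic subunit of Polycomb repressive complex 2 (PRC2), which methylates lysine 27 of histone H3, Kdm6a removes that mark, and Asxl1 is a cofactor of the BAP1 deubiquitinase that acts on histone H2A. In human myeloid disease most of these lesions alter or remove the protein. Counts per gene carry no such sequence change, and only transcript abundance was compared.

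RNA was read from 4 libraries, one per mouse, with gene counts of 11934542 and 10263454 in KD replicates 1 and 2 and of 4581593 and 10869534 in KI replicates 1 and 2. Values below are CPM, gene counts scaled to a common library total, with TMM, a trimmed-mean correction for composition, and 3 counts were worth 0.212 to 0.259 CPM in KD and 0.356 to 0.696 CPM in KI libraries. The 3 most abundant loci, all predicted genes, took 19.4% and 21.2% of gene counts in KD libraries and 39.0% and 44.4% in KI libraries. Reads in no annotated feature made up 67.4% and 63.2% of uniquely aligned reads in KD libraries, against 88.3% and 68.3% in KI libraries. The Gfi1 gene, read first to check the labels, had 7.22 and 1.12 CPM in KD libraries, against 36.2 and 89.0 CPM in KI libraries. Both KD libraries lay below both KI libraries, which is the direction the labels give (log2 fold change of KD over KI −3.89 ± 0.95 SE, edgeR adjusted p = 0.518). By the labels, however, only KI mice keep a wild-type allele, and reads of a human coding sequence may be counted only in part at the mouse gene. A lower count in KD could therefore arise without lowered expression of the KD allele, so these values do not measure the dose of Gfi1. Y-linked transcripts were found in replicate 1 of each genotype and Xist in replicate 2 of each, so the replicates of a genotype differ in sex as well as in mouse, and both differences were carried by the same replicate numbers.

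Markers of several kinds of mature blood cell also differed between the genotypes. Over all genes tested, 14.5% lay higher and 23.5% lower in both KD libraries. Of 12 mature neutrophil and secondary granule markers, 11 had both KD libraries below both KI libraries, and their summed level was 3780 and 1846 CPM in KD, against 17000 and 17660 CPM in KI libraries. Of 16 erythroid markers 15 were in the table, all 15 lay lower in both KD libraries, and their sum was 88.3 and 5.27 CPM in KD, against 615 and 632 CPM in KI libraries, with Hba-a1 and Epor at 0 counts in KD replicate 2. Monocyte and macrophage markers ran the other way, with 5 of 12 higher in both KD libraries and sums of 3056 and 2791 CPM in KD, against 2132 and 1557 CPM in KI libraries. Stem and progenitor markers summed to 414 and 416 CPM in KD and to 387 and 394 CPM in KI libraries, but single members moved in opposite directions. Of the 10, 1 lay higher in both KD libraries, Cd34, at 68.4 and 120 CPM in KD, against 32.5 and 6.41 CPM in KI libraries. Kit, the 1 lower in both, had 34.1 and 27.04 CPM in KD, against 55.2 and 52.7 CPM in KI libraries. All 10 had counts, as did all 12 of the neutrophil and all 12 of the monocyte markers. T cell markers summed to 15.6 and 24.8 CPM in KD, against 87.7 and 79.4 CPM in KI libraries, with 9 of 14 lower in both KD libraries. Cd3e alone gave 37.25 CPM of the sum in KI replicate 2. B cell markers summed to 20.2 and 25.1 CPM in KD, against 55.0 and 34.5 CPM in KI libraries. Only 3 of 10 were lower in both KD libraries, near the share of all genes. Cd79b, at 13.09 and 16.85 CPM in KD and 10.44 and 28.12 CPM in KI libraries, overlapped. Genes silent in blood ran the same way. The 16 listed summed to 2.76 and 1.90 CPM in KD, against 25.1 and 6.29 CPM in KI libraries, with 8 lower in both KD libraries. In such bulk RNA fewer cells of a type and less RNA per cell cannot be told apart. The part of these cell types, or of reads outside annotated features, in the marker sums and in the results that follow was not tested.

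None of the 10 regulators passed the test. edgeR's quasi-likelihood test with Benjamini-Hochberg adjustment at 0.05 called 0 of the 10, against a background of 0% of the 13822 genes tested, and 0 of the 10 had an unadjusted p below 0.05, against 9.63% of all genes. DESeq2 also called 0 of the 10, with adjusted p between 0.383 and 0.999, where it called 1.04% of all genes. With 2 mice a side an exact permutation test of a single gene cannot go below a two-sided p of 0.333. In 6 of the 10 the KD and KI libraries did not overlap, compared with 38% of all genes: Tet2, Tet3, Ezh2, Idh1 and Idh2 were higher in both KD libraries, where 14.5% of all genes were, and Dnmt3a was lower in both, where 23.5% of all genes were. Among the 6534 genes averaging at least 20 CPM, a cut chosen after seeing the data, 21.9% lay higher and 9.53% lower in both KD libraries. The fold change was positive for 8 of the 10 regulators, against 44.5% of all genes and 62% of those averaging at least 20 CPM. Their median was 0.35 on the log2 scale, against −0.06 over all genes tested and 0.09 over those averaging at least 20 CPM. The count of non-overlapping regulators depended on the scaling. Upper quartile scaling left 3 higher and 1 lower, with Tet3 and Idh1 overlapping, where 11% of all genes lay higher and 27.4% lower. Library size alone gave 8 higher and 0 lower, where 42.3% of all genes lay higher and 12.8% lower. Library size alone moved the median log2 fold change of all genes up by 0.43, to 0.37, and the regulators' median stood 0.40 above it, against 0.42 above it with TMM. A change of scaling shifts all genes by nearly the same amount, so this difference could hardly change and does not test the regulators. Without KD replicate 1 the counts were 7 higher and 3 lower, where 27.1% of all genes lay higher and 31.2% lower. Without KI replicate 2 they were 7 higher and 2 lower, where 41.1% of all genes lay higher and 40.2% lower.

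**Figure D1:**
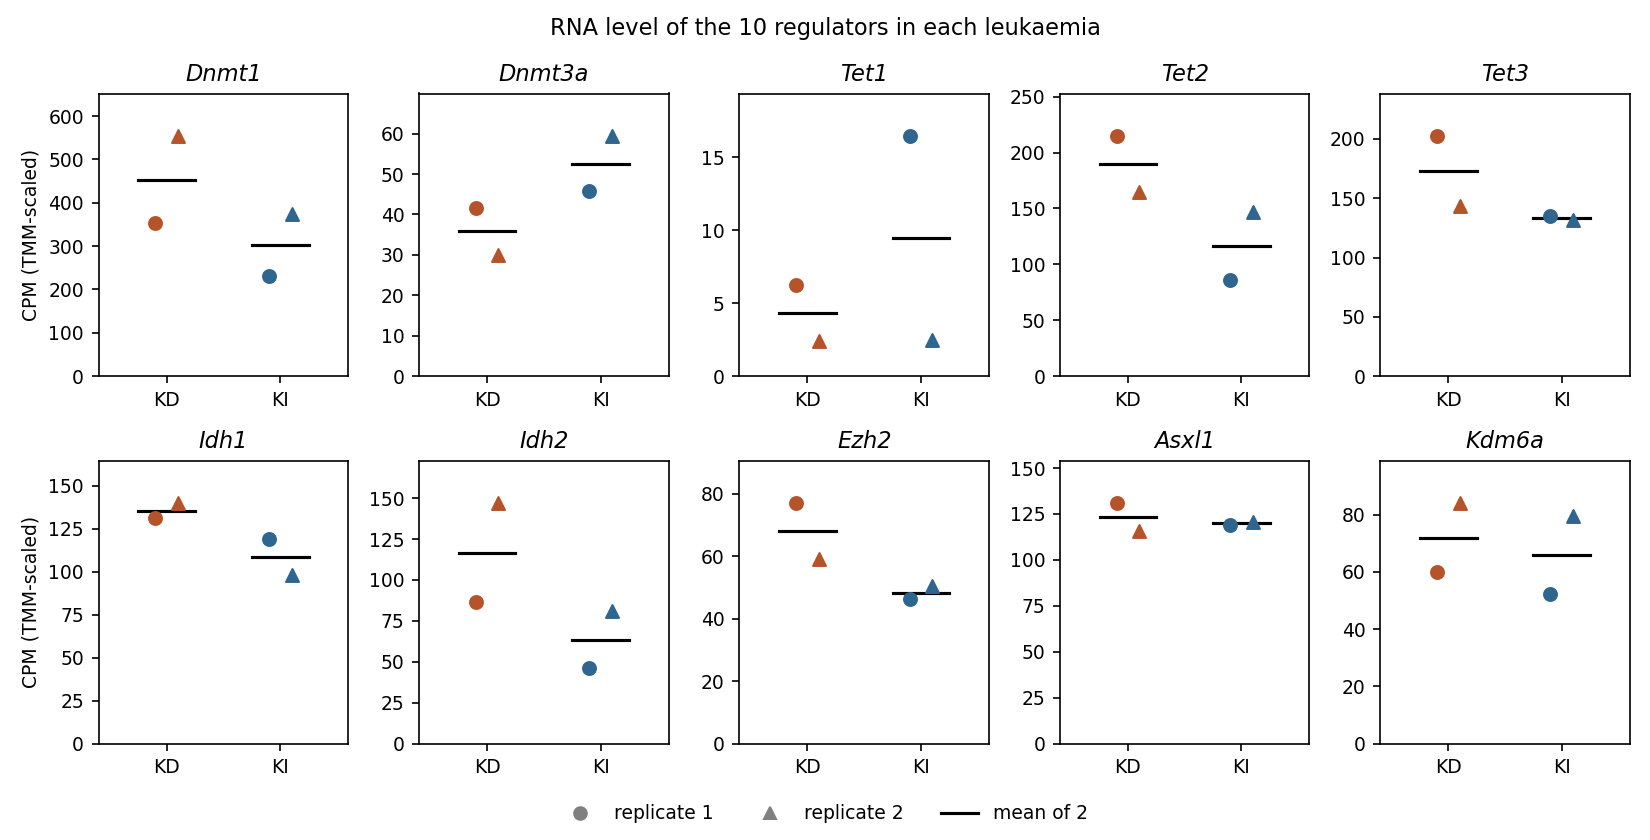
CPM after TMM scaling of the 10 regulators on linear axes that start at 0, one panel per gene, with KD to the left of KI and one point per library (circles for replicate 1, triangles for replicate 2, black lines for the mean of 2 libraries). KD and KI points do not overlap for Dnmt3a, which is lower in KD, and for Tet2, Tet3, Ezh2, Idh1 and Idh2, which are higher.

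**Figure D2:**
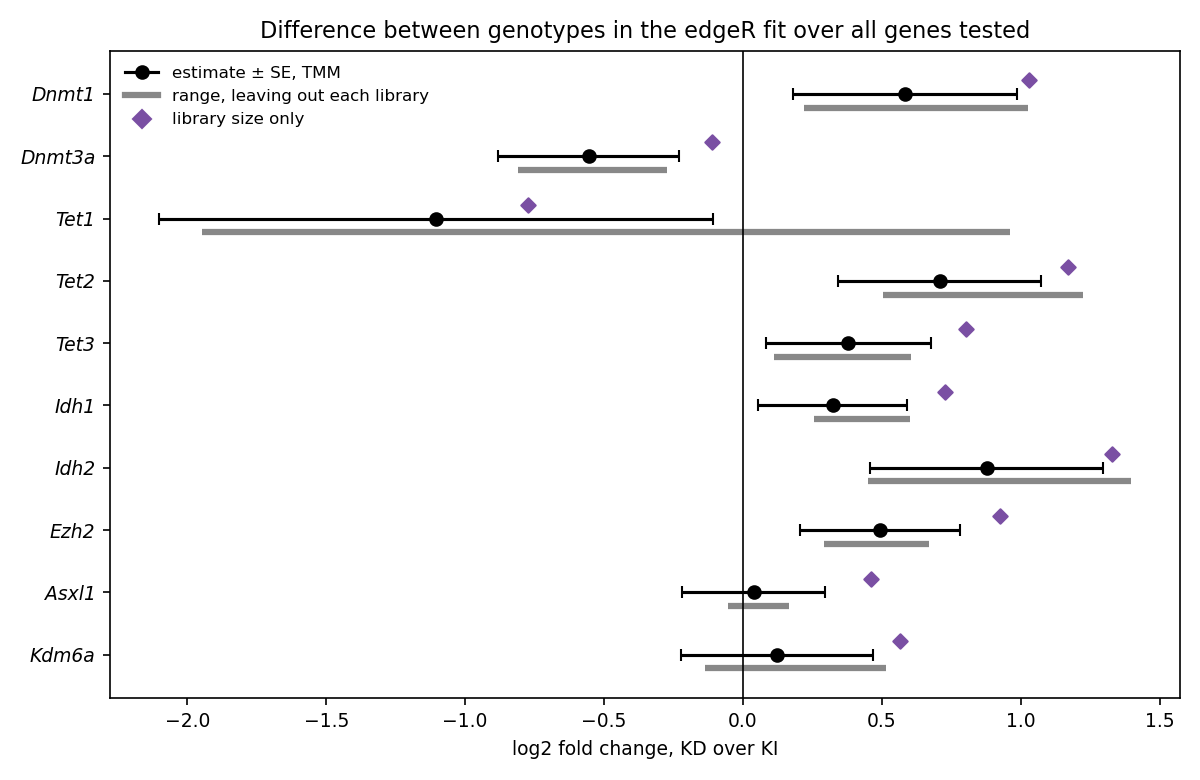
Log2 fold change of KD over KI for each regulator with its standard error, from the edgeR fit over all genes tested (2 libraries per genotype), with the range when each library is left out in turn as a grey bar and the value with library size alone as a diamond. The values run from −1.11 for Tet1 to 0.88 for Idh2, and none passed an adjusted p of 0.05.

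The DNA methyltransferases pointed in opposite directions. Dnmt3a (ENSMUSG00000020661, chromosome 12, 3801559 to 3914443, build GRCm38), whose human counterpart is among the most often mutated genes of AML, had 41.6 and 30.0 CPM in KD libraries, against 45.7 and 59.4 CPM in KI libraries. Both KD libraries lay below both KI libraries, and KD replicate 1 stood close under KI replicate 1. The means were 35.8 ± 8.22 CPM in KD and 52.6 ± 9.72 CPM in KI (SD, n = 2 each), a log2 fold change of −0.56 ± 0.33 (SE) that did not pass the test (edgeR adjusted p = 0.67). It stayed negative in every alternative fit, at −0.27 without KI replicate 2 and −0.81 without KD replicate 1, and came nearest to 0 with library size alone, at −0.11.

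Dnmt1 (ENSMUSG00000004099, chromosome 9, 20907206 to 20959888), the maintenance enzyme, had 353 and 554 CPM in KD libraries, against 231 and 374 CPM in KI libraries. The groups overlapped because replicate 2 was the higher library in both genotypes, and KD replicate 1 lay below KI replicate 2. Within each replicate number the KD library was higher, by 0.61 in replicate 1 and by 0.57 in replicate 2 on the log2 scale, and the fit gave 0.58 ± 0.40 (SE, edgeR adjusted p = 0.74). Taken within each library, which removes the scaling between libraries, the ratio of Dnmt3a counts to Dnmt1 counts was 0.118 and 0.0541 in KD, against 0.198 and 0.159 in KI libraries. Both KD ratios were below both KI ratios, and their 95% exact binomial intervals, which cover counting error only, ran from 0.108 to 0.129 and from 0.0484 to 0.0603 in KD and from 0.169 to 0.231 and from 0.144 to 0.175 in KI libraries. The mean log2 ratio was lower in KD by 1.15 (pooled SD 0.58, n = 2 each), and leaving out 1 library at a time gave differences between −0.59, without KD replicate 2, and −1.71, without KD replicate 1. How often ratios of other gene pairs separate the genotypes was not counted, so it is not known whether this separation is unusual. The part of cell division in this ratio was not tested. Summed proliferation genes were 3519 and 4479 CPM in KD, against 2248 and 3695 CPM in KI libraries, with replicate 2 the higher library in both genotypes as for Dnmt1. Of the 18, 4 lay higher in both KD libraries, near the 21.9% of genes averaging at least 20 CPM that did. Over all genes tested the share was 14.5%.

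The genes around the methyltransferases gave a mixed picture. Of 19 other genes of DNA methylation and demethylation 18 were tested, 9 lay on the positive and 9 on the negative side of 0, and none passed the edgeR test. Uhrf1, which brings Dnmt1 to replicated DNA, had 143 and 250 CPM in KD libraries, against 103 and 215 CPM in KI libraries, the same order of libraries as Dnmt1 (log2 fold change 0.31 ± 0.48, edgeR adjusted p = 0.955). Dnmt3b, the other de novo enzyme, had 9.55 and 11.4 CPM in KD and 10.7 and 14.7 CPM in KI libraries, with overlapping groups. The 3 list members with the lowest p were Wt1, Cxxc4 and Gadd45a. Wt1, a zinc finger factor that recruits Tet2 to DNA and is itself mutated in human AML, had 0.50 and 0.86 CPM in KD, against 11.4 and 0.83 CPM in KI libraries, so its difference rested on KI replicate 1 (log2 fold change −0.18 without it, and −3.12 ± 1.33 with it, edgeR adjusted p = 0.531). Cxxc4, a CpG-binding partner of Tet2, had 1.20 and 1.12 CPM in KD, against 6.26 and 1.90 CPM in KI libraries, again highest in KI replicate 1.

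Of the Tet enzymes, Tet2 and Tet3 were higher in both KD libraries and Tet1 was not. Tet2 (ENSMUSG00000040943, chromosome 3, 133463677 to 133545136), the family member most often mutated in human myeloid disease, had 215 and 165 CPM in KD libraries, against 85.8 and 147 CPM in KI libraries. No library crossed over, but KI replicate 1 was the one far below the rest and KD replicate 2 was near KI replicate 2. The means were 190 ± 35.2 CPM in KD and 116 ± 42.9 CPM in KI (SD, n = 2 each), a fold of 1.63 and a log2 fold change of 0.71 ± 0.36 (SE, edgeR adjusted p = 0.594). It was 0.51 without KD replicate 1, 0.52 without KI replicate 1 and 1.22 without KI replicate 2.

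Tet3 (ENSMUSG00000034832, chromosome 6, 83362373 to 83457208), a paralogue of Tet2, had 203 and 144 CPM in KD libraries, against 135 and 132 CPM in KI libraries. Both KD libraries were higher, with KD replicate 1 standing apart and KD replicate 2 just above the KI pair. The log2 fold change was 0.38 ± 0.30 (SE, edgeR adjusted p = 0.797) and 0.11 without KD replicate 1. The within-library ratio of Tet2 to Tet3 counts was 1.06 and 1.15 in KD, against 0.637 and 1.11 in KI libraries. These overlapped, since KI replicate 2 lay among the KD libraries and KI replicate 1 alone was low, and without KI replicate 1 the difference in mean log2 ratio was −0.01.

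Tet1 (ENSMUSG00000047146, chromosome 10, 62804570 to 62887469), which human AML can carry as a fusion partner of KMT2A, was the least counted of the 10 genes, with 88 and 28 reads in KD libraries and 71 and 21 reads in KI libraries. Its levels were 6.23 and 2.42 CPM in KD and 16.5 and 2.49 CPM in KI libraries. Replicate 1 was the higher library in both genotypes, so the groups overlapped, and the log2 fold change of −1.11 ± 1.00 (SE, edgeR adjusted p = 0.849) became 0.96 without KI replicate 1.

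Of the isocitrate dehydrogenases, Idh1 and Idh2 were higher in both KD libraries, and the groups overlapped for Idh3a, Idh3b and Idh3g. Idh2 (ENSMUSG00000030541, chromosome 7, 80094845 to 80118608), the mitochondrial enzyme, had 86.8 and 147 CPM in KD libraries, against 45.9 and 80.9 CPM in KI libraries. Replicate 2 was higher than replicate 1 in both genotypes, and the lower KD library was still just above the higher KI library. The means were 117 ± 42.5 CPM in KD and 63.4 ± 24.7 CPM in KI (SD, n = 2 each), a fold of 1.84 and the highest fold change of the 10 genes in this fit, at 0.88 ± 0.42 on the log2 scale (SE, edgeR adjusted p = 0.567). Within replicate 1 the difference was 0.92 and within replicate 2 it was 0.86, and leaving out 1 library gave 0.45 without KD replicate 2 and 1.40 without KI replicate 2.

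Idh1 (ENSMUSG00000025950, chromosome 1, 65158616 to 65186479), the cytosolic enzyme, had 131 and 140 CPM in KD libraries, against 119 and 97.9 CPM in KI libraries. Each KD library was higher than each KI library by a small margin, with means of 136 ± 5.98 CPM in KD and 108 ± 14.9 CPM in KI (SD, n = 2 each). The log2 fold change was 0.32 ± 0.27 (SE, edgeR adjusted p = 0.816). The ratio of Idh2 to Idh1 counts was 0.661 and 1.05 in KD, against 0.386 and 0.827 in KI libraries, and followed the replicate number more than the genotype: replicate 2 was higher in both genotypes, and the groups overlapped.

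Among 18 other enzymes that make or use isocitrate and 2-oxoglutarate, 12 were above and 6 below 0, the median log2 fold change was 0.17, and 0 passed the edgeR test. Without KD replicate 2 the median was −0.02. Glud1, which converts glutamate to 2-oxoglutarate, had 272 and 244 CPM in KD libraries, against 172 and 164 CPM in KI libraries. Both KD libraries were clear of both KI libraries, with a log2 fold change of 0.62 ± 0.27 that did not pass after adjustment (edgeR adjusted p = 0.536). Ogdh, a subunit of the complex that consumes 2-oxoglutarate in the tricarboxylic acid cycle, had 154 and 170 CPM in KD and 107 and 150 CPM in KI libraries, also without overlap. Glud1 and Ogdh were the only 2 of the 18 whose groups did not overlap. That is 11.1% of the list, compared with 38% of all genes.

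Of the Polycomb-related genes, Ezh2 was higher in both KD libraries and Asxl1 was level. Ezh2 (ENSMUSG00000029687, chromosome 6, 47530274 to 47595270) had 76.9 and 59.1 CPM in KD libraries, against 46.2 and 50.4 CPM in KI libraries. KD replicate 1 was the highest library and the KI pair lay close together below both KD libraries. The means were 68.0 ± 12.6 CPM in KD and 48.3 ± 3.02 CPM in KI (SD, n = 2 each), a log2 fold change of 0.49 ± 0.29 (SE, edgeR adjusted p = 0.667) that was 0.29 with KD replicate 1 left out and 0.67 with KD replicate 2 left out. Its paralogue Ezh1, which serves PRC2 in resting cells, had 34.7 and 35.9 CPM in KD and 39.7 and 34.2 CPM in KI libraries, with overlapping groups. The ratio of Ezh2 to Ezh1 counts was 2.21 and 1.64 in KD, against 1.16 and 1.48 in KI libraries. Both KD ratios were higher, by 0.54 in mean log2 ratio (pooled SD 0.28, n = 2 each) and by 0.33 without KD replicate 1, and the interval of KD replicate 2, from 1.45 to 1.86, overlapped that of KI replicate 2, from 1.27 to 1.72. For this ratio too, no count over other gene pairs was made.

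**Figure D3:**
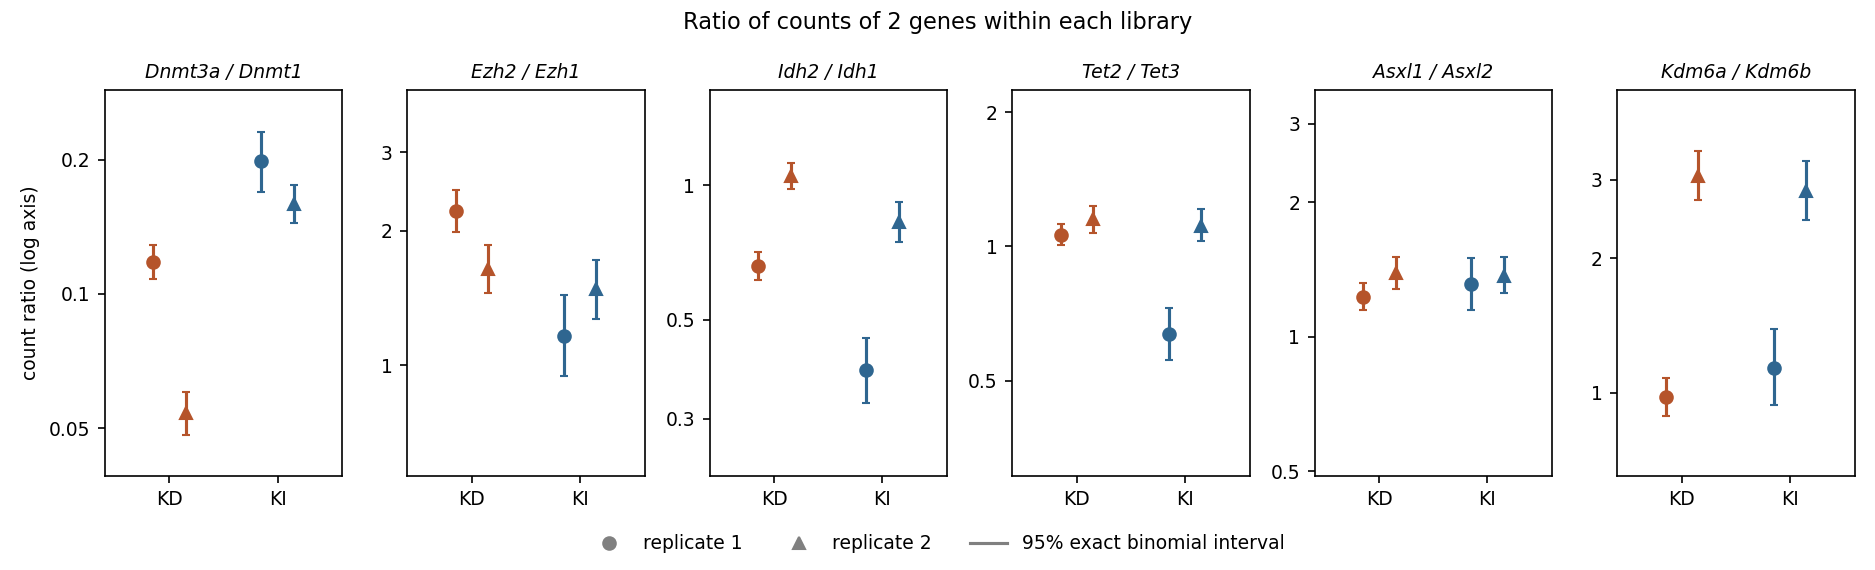
Ratio of the counts of 2 paralogous or functionally paired genes within each library, on a log axis, with KD left of KI, circles for replicate 1, triangles for replicate 2 and bars for 95% exact binomial intervals. KD ratios lie below KI ratios for Dnmt3a to Dnmt1 and above them for Ezh2 to Ezh1, and the other 4 pairs overlap. The share of other gene pairs whose ratios separate was not counted. Of single genes tested, 38% did not overlap.

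Ezh2 and Dnmt1 are textbook targets of E2F factors, which drive genes of DNA replication, and their promoters are shown because they were the only members whose annotated start windows held an exact E2F site. The forms TTTGGCGC and TTTCGCGC were searched on both strands in 300-base windows around RefSeq starts of build GRCm38.p6 (a single gene may have several). Sites of the 2 forms share no bases in the windows shown. A site of either form was present in 0.813% of 32851 windows of that length and in 2 of the 15 windows that RefSeq gives for the 10 regulators. Dnmt1 has 3 of these windows, of which only the window shown held a site, and Ezh2 has 1. Both windows lie on the minus strand and are written 5′ to 3′, with the sites in capitals.
Ezh2, chr6:47594981-47595280: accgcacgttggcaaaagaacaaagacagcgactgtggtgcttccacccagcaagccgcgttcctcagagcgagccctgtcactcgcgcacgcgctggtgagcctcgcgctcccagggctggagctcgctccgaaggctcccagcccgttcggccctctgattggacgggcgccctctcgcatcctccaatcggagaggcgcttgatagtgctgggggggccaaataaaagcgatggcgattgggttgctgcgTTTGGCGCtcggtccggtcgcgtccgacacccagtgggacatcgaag
Dnmt1, chr9:20952574-20952873: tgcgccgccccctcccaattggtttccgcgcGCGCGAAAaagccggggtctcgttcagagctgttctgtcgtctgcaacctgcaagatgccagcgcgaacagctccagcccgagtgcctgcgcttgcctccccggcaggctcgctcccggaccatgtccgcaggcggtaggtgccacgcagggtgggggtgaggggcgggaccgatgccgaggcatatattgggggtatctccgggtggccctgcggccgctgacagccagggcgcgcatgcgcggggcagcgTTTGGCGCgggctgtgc
In the Ezh2 window the site begins at base 254, and in the Dnmt1 window one form begins at base 284 and the other, read from the opposite strand as GCGCGAAA, at base 32. The AATC core bound by Gfi1 was in 8 of the 15 windows and in 73.1% of all windows, and the longer form AAATCAC was in 0 of the 15 and in 3.2% of all. A match describes the letters and not occupancy, and absence of a match says only that these letters are not in the window.

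The other PRC2 genes had no shared direction. Of 12 other subunits and partners 11 were tested, 6 above and 5 below a log2 fold change of 0, with their median at 0.02 and 0 calls. Suz12, a core subunit, had 98.9 and 94.4 CPM in KD libraries, against 70.7 and 103 CPM in KI libraries, with overlapping groups. Eed, the subunit that reads the mark, had 44.9 and 45.4 CPM in KD and 35.02 and 39.3 CPM in KI libraries, both KD libraries being higher (log2 fold change 0.28 ± 0.28, edgeR adjusted p = 0.879). Of 22 subunits of PRC1, the complex that ubiquitinates histone H2A, 5 had positive and 17 had negative values, and none passed the edgeR test. The median was −0.14 with TMM and 0.30 with library size alone. Relative to the median of all genes it was −0.07 under both, as scaling shifts all genes nearly alike. Cbx7, a chromodomain subunit of PRC1, had 12.9 and 9.85 CPM in KD, against 26.0 and 20.8 CPM in KI libraries. Both KD libraries were well below both KI libraries (log2 fold change −1.04 ± 0.37, edgeR adjusted p = 0.518). Cbx2 of the same family had 7.78 and 10.1 CPM in KD, against 6.26 and 4.75 CPM in KI libraries, higher in both KD libraries (0.71 ± 0.50, edgeR adjusted p = 0.751).

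Asxl1 (ENSMUSG00000042548, chromosome 2, 153345830 to 153404007) had 131 and 116 CPM in KD libraries, against 119 and 121 CPM in KI libraries. The KI libraries lay between the KD libraries, and the means were 123 ± 10.8 CPM in KD and 120 ± 1.27 CPM in KI (SD, n = 2 each). Its log2 fold change was 0.04 ± 0.26 (SE, edgeR adjusted p = 0.998), and −0.05 under upper quartile scaling. Relative to the median of all genes, which scaling shifts by nearly the same amount, it was 0.10 with TMM and 0.09 under upper quartile scaling. The ratio of Asxl1 to its paralogue Asxl2 was 1.23 and 1.39 in KD, against 1.31 and 1.37 in KI libraries, and the intervals of all 4 libraries overlapped. Of 11 ASXL paralogues and BAP1 partners 6 had positive and 5 had negative values, and none passed the edgeR test. Asxl3 had 0.50 and 0.69 CPM in KD, against 6.73 and 2.02 CPM in KI libraries. It was lower in both KD libraries, was highest in KI replicate 1 and rested on few counts (log2 fold change −2.84 ± 0.94, edgeR adjusted p = 0.518). Genes that blood cells do not normally express were also highest in KI replicate 1, where 16 of them summed to 25.1 CPM, against 6.29 CPM in KI replicate 2, with 2.76 and 1.90 CPM in KD libraries. Ube2o, a ubiquitin ligase that acts on BAP1 and serves in red cell maturation, had 24.7 and 21.6 CPM in KD, against 37.8 and 37.1 CPM in KI libraries. It was lower in both KD libraries, alongside the lower erythroid markers, and their part in it was not tested.

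Kdm6a (ENSMUSG00000037369, X chromosome, 18160862 to 18279936), the X-linked regulator of the 10, followed the replicate number in both genotypes, as sex-linked genes did. It had 60.1 and 83.9 CPM in KD libraries, against 52.4 and 79.6 CPM in KI libraries. The higher library in each genotype was replicate 2, and the groups overlapped almost fully (log2 fold change 0.12 ± 0.35, edgeR adjusted p = 0.987). Kdm6a escapes X inactivation, and its Y-linked paralogue Uty had 29.9 and 0 CPM in KD, against 46.2 and 0 CPM in KI libraries. Xist, the RNA that coats the inactive X, ran opposite to Uty at 0.42 and 846 CPM in KD, against 13.0 and 785 CPM in KI libraries. Kdm5c, another gene that escapes inactivation, showed the order of Kdm6a with 125 and 160 CPM in KD, against 96.7 and 140 CPM in KI libraries. The autosomal regulators Dnmt1 and Idh2 were also higher in replicate 2 of both genotypes, so this order was not particular to sex-linked genes. Sex and mouse cannot be told apart with 1 mouse of each sex per genotype.

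**Figure D4:**
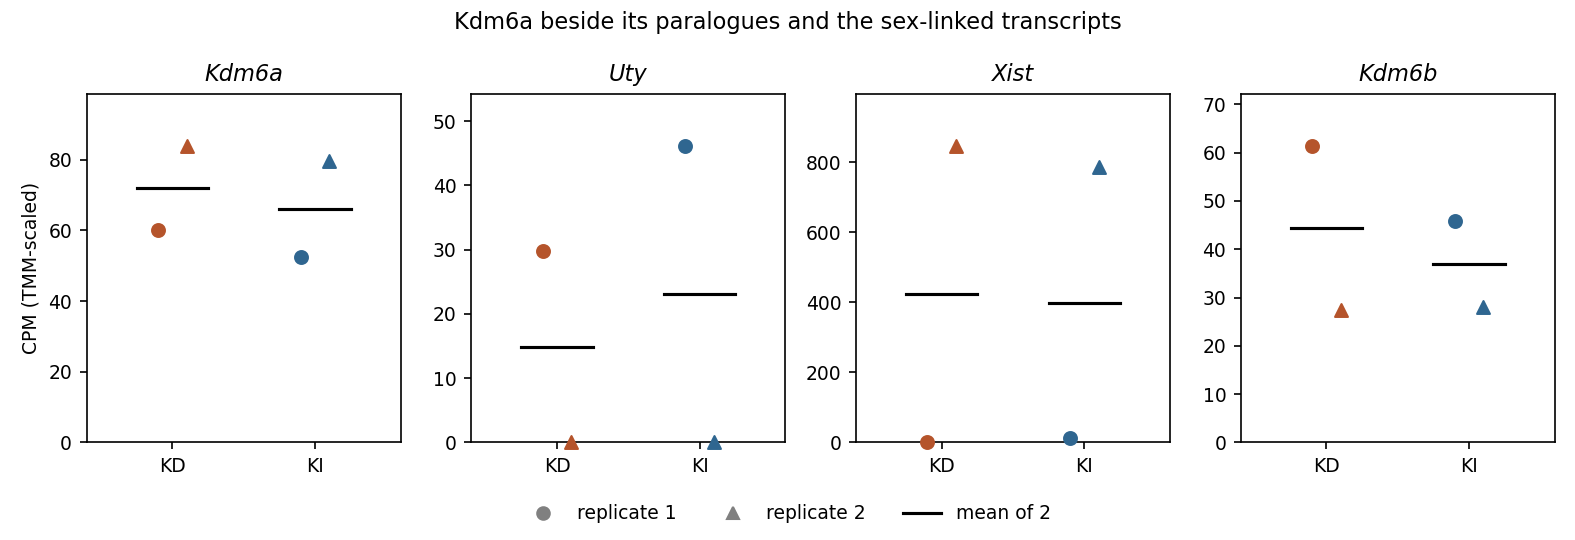
CPM after TMM scaling of Kdm6a, its Y-linked paralogue Uty, Xist and its autosomal paralogue Kdm6b in each library, with KD left of KI, circles for replicate 1, triangles for replicate 2 and black lines for the mean of 2 libraries. Replicate 1 of each genotype carries Uty and replicate 2 of each carries Xist, and Kdm6a is higher in replicate 2 of both genotypes.

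Kdm6b, the autosomal demethylase of the same mark, was the reverse of Kdm6a over replicates, with 61.4 and 27.4 CPM in KD, against 45.9 and 28.1 CPM in KI libraries. The ratio of Kdm6a to Kdm6b counts was 0.978 and 3.06 in KD and 1.14 and 2.83 in KI libraries, so it separated the replicate numbers and not the genotypes (difference in mean log2 ratio −0.06, pooled SD 1.05, n = 2 each). A further list held 14 KDM6A paralogues and members of the KMT2 complexes of H3K4 methyltransferases, only some of which contain Kdm6a. Of these genes 9 had positive and 5 negative values, the median being 0.24, with 0 calls. Men1, which encodes menin, had 27.7 and 33.3 CPM in KD, against 17.9 and 25.3 CPM in KI libraries, both KD libraries being higher (0.49 ± 0.34, edgeR adjusted p = 0.739).

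A list of 26 further genes mutated in MDS and AML, which include splicing factors, cohesin subunits, transcription factors and signalling genes, held 17 positive and 9 negative fold changes, a median of 0.09 and 0 calls, and the median was −0.01 under upper quartile scaling, where that of all genes was −0.14. Wt1 belongs to this list as well. Kit, the stem cell factor receptor, had 34.1 and 27.04 CPM in KD libraries, against 55.2 and 52.7 CPM in KI libraries. It was lower in both KD libraries by a wide margin beside the gap within each genotype (log2 fold change −0.82 ± 0.29, edgeR adjusted p = 0.518). Etv6, a repressor of the ETS family, had 139 and 143 CPM in KD, against 96.3 and 103 CPM in KI libraries, with tight pairs that did not overlap (0.50 ± 0.25, edgeR adjusted p = 0.592).

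**Figure D5:**
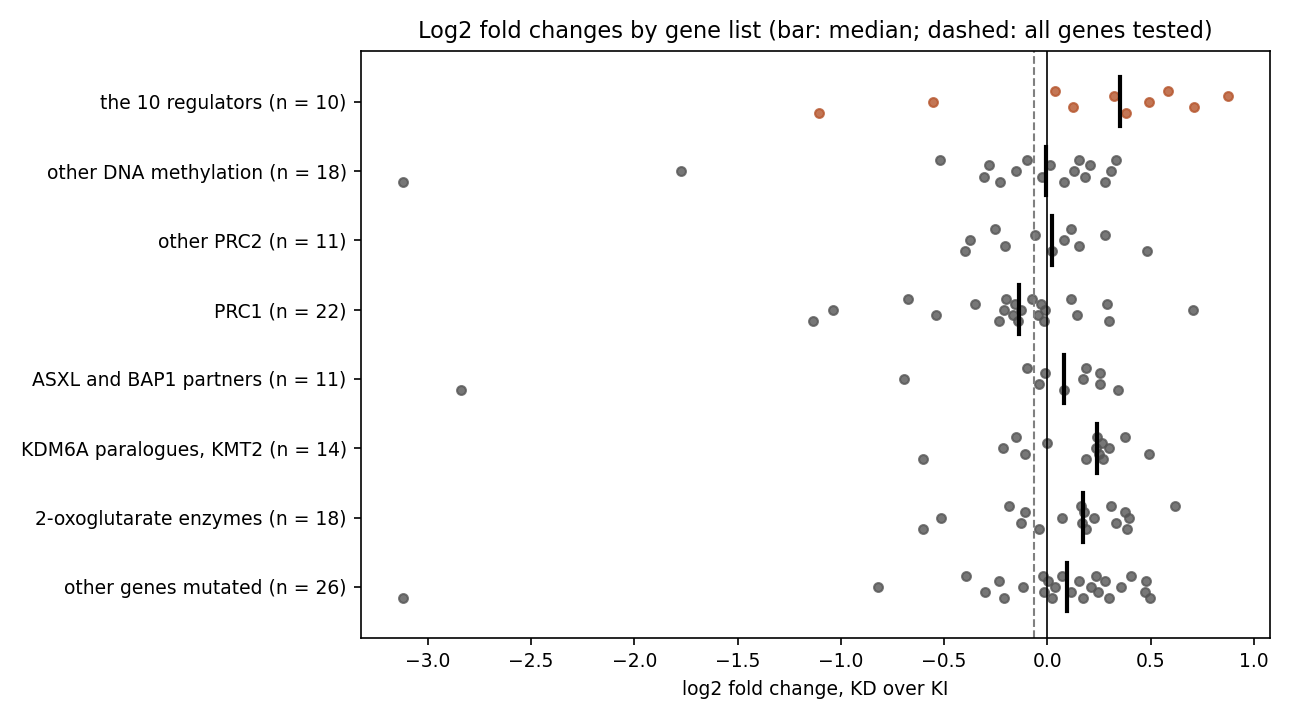
Log2 fold change of KD over KI of every tested gene in the 10 regulators and in the 7 lists of pathway partners, with the median of each list as a black bar, the median of all genes tested as a dashed line, and 1 point per gene. List medians run from −0.14 for PRC1 subunits to 0.35 for the 10 regulators, beside −0.06 for all genes tested. With library size alone the PRC1 median is 0.30, beside 0.37 for all genes.

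Among the 10 regulators the replicates of a genotype often lay further apart than the genotypes. The genotype difference was wider than both within-genotype gaps for 4 genes, Dnmt3a, Ezh2, Idh1 and Idh2. For 5 genes, Dnmt1, Tet1, Tet3, Idh2 and Kdm6a, the gap between the replicates ran in the same direction in both genotypes. The KD library was on the same side of the KI library in both replicate numbers for 9 genes, the exception being Asxl1. Among these, Tet1 and Kdm6a differed in replicate 2 by only −0.04 and 0.08 on the log2 scale. Such counts were not made over all genes, so they do not show whether the regulators are unusual. Profiles over the 4 libraries were also set against 128 pathway genes by Euclidean distance of centred log2(CPM + 0.5). Tet3 and Ezh2 were each other's nearest, at 0.19, and the smallest distance was 0.08 between Kdm6a and the cohesin subunit Smc3, which is autosomal and had 113 and 148 CPM in KD, against 95.1 and 140 CPM in KI libraries. Idh2 lay nearest to Dnmt1, at 0.32, and Tet1 had the widest distance, 1.04, to the PRC1 gene Pcgf2. The nearest gene was Phf1 for Dnmt3a at 0.31, Sdhb for Dnmt1 at 0.23, Foxk2 for Tet2 at 0.48, Kmt2b for Asxl1 at 0.12 and Gata2 for Idh1 at 0.12. With 4 libraries such likeness is a description of these mice and carries no test.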

How the data were processed

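RNA was measured in 4 TruSeq Stranded mRNA libraries, from 2 KD and 2 KI mice. The deposited values are raw counts per Ensembl gene, made by the authors with TopHat2 2.0.10, SAMtools and HTSeq on GRCm38, per the submitters' processing notes. The strand option of HTSeq is not given in the sources used here. Annotated genes that overlap the regulators and were found in the table held at most 3 counts per library. Summary lines that name no gene, 93.2% to 97.9% of each total, were left out.

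In R 4.3.3, edgeR 4.0.16 kept 13822 genes by filterByExpr, scaled them by TMM and tested KD over KI with the quasi-likelihood F test on genotype alone, adjusting p by Benjamini-Hochberg at 0.05 (common dispersion 0.204). Each p-value reflects the spread among only these 4 mice. Alternatives were DESeq2 1.42.0, limma-voom (limma 3.58.1), other scalings and filters, a replicate block, and leaving out each library. Exon lengths were not used here, so levels are not compared between genes, and ratios of gene pairs are raw count ratios compared only between libraries. Besides the 10 regulators the text names the 3 genes with the lowest p in each list (not all are printed, and 1 is not reported here), Gfi1, marker genes and, by closeness of pattern, 1 gene per regulator. Others (Uhrf1, Dnmt3b, Suz12, Ezh1, Asxl2, Kdm6b, Kdm5c, Idh3a, Idh3b, Idh3g) were chosen for their role or after their values were seen. The regulators and all lists were chosen with earlier results of these data known. Gene coordinates and promoter windows are from RefSeq, GRCm38.p6. The 8 chromatin libraries are not analysed here, and 1616 columns of their tables name no single sample and were not used.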

Additional observations from a re-analysis of the deposited data

How the results depend on the processing

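No setting called any of the 10 regulators. Over 130 further fits of the 10, 7 genes (Dnmt3a, Dnmt1, Tet2, Tet3, Ezh2, Idh1, Idh2) kept their direction and 6 fits reversed one. Asxl1 was −0.048 under upper quartile scaling and −0.046 with at least 5 CPM in 2 libraries. With 1 library left out Asxl1 ran from −0.054 to 0.17, Kdm6a from −0.14 (without KD replicate 2) to 0.52, being −0.02 without KI replicate 1, Tet1 from −1.95 to 0.96 and Mtf2 from −0.60 to 0.17, and Mtf2 was 0.083 with library size alone. The cause was not tested.

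Genes called higher and lower numbered 29 and 140 with no filter, 5 and 139 by DESeq2, and from 3 to 149 and from 29 to 774 with 1 library left out. Regulators higher in both KD libraries numbered 8 with library size alone. The medians of the regulators were 0.43 under RLE scaling, 0.26 under upper quartile scaling, 0.76 with library size alone, 0.56 with no filter, 0.26 with at least 5 CPM, 0.43 by DESeq2, and 0.25 to 0.53 with 1 library left out. PRC1 medians were −0.054, −0.21, 0.30 and 0.053 for RLE, upper quartile, library size alone and no filter, −0.055 by DESeq2, and −0.20 to 0.047 with 1 library left out. Medians of other mutated genes were −0.010, 0.50 and 0.30 for upper quartile, library size alone and no filter, and 0.018 to 0.41 with 1 library left out. With library size alone and no filter the DNA methylation list had 0.40 and 0.15, and the BAP1 partners 0.50 and 0.28. With library size alone PRC2 had 0.51, KMT2 partners 0.65 and 2-oxoglutarate enzymes 0.63. With 1 library left out DNA methylation genes ran from −0.19 to 0.20, BAP1 partners from −0.11 to 0.28, KMT2 partners from −0.049 to 0.37, 2-oxoglutarate enzymes from −0.025 to 0.72 and PRC2 from −0.07 to 0.23. Without KI replicate 2 the all-gene median moved up by 0.17, and edgeR called Wt1 (−3.995, adjusted p = 0.0351) and Asxl3 (−3.42, adjusted p = 0.0425), with the lone KI library assumed to vary like the KD pair, as in every fit that leaves out a library.

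Same-numbered libraries deviated together with r = 0.269 across 13822 genes, which are not independent, but with only 2 pairs the numbers were not taken as a pairing. Sex goes with the replicate number in both genotypes, so a block on that number also takes up sex, which the main fit does not. The fit with this block called 0 genes higher and 7 lower, none of them a regulator. It gave Idh2 0.89 (edgeR unadjusted p = 0.00659, adjusted p = 0.267) and Dnmt1 0.59 (edgeR unadjusted p = 0.0425, adjusted p = 0.398). These 2 of the 10 were below an unadjusted p of 0.05 in it, as were 12.1% of all genes.

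Tet1 has the fewest counts of the 10, with 21 to 88 per library, and KI replicate 1, with 4581593 gene counts, is the shallowest library.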

Other observations

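Ddx3y, a Y-linked RNA helicase, was low in KD replicate 1, where the Y-linked genes Uty, Kdm5d and Eif2s3y had higher values. It had 1.27 and 0.09 CPM in KD libraries, against 77.5 and 0.24 CPM in KI libraries. Kdm5d, a Y-linked H3K4 demethylase, had 48.0 and 0.26 CPM in KD and 48.2 and 0.71 CPM in KI libraries. Eif2s3y, a Y-linked translation initiation subunit, had 58.0 and 0.09 CPM in KD and 83.7 and 0 CPM in KI libraries. Of the 6 Y-linked genes read, Usp9y had 0 counts in both KD libraries and 3 and 0 counts in KI libraries, and Zfy1 had 0 counts in all 4. These values were picked after they were seen and were not tested.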
